A study of Mus musculus with 4 samples.

Results

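Homeobox transcription factors that mark classes of neurons were followed in mouse P19 embryonal carcinoma cells on day 4 of retinoic acid treatment. The 9 genes chosen were Lhx1, Lhx5, Pax2, Lhx2, Pou4f1, Tlx3, Isl1, Onecut1 and Lmo4, and each was to be measured by every probe set whose annotation names that gene alone. Of them, 7 genes had such probe sets, 10 in all, among 20393 probe sets of 12393 genes with a single symbol. Pax2 and Pou4f1 had none and were not analysed here. The name homeobox factor holds for every gene but Lmo4, which encodes a LIM-only protein without a homeodomain that binds the same cofactors as the LIM-homeodomain proteins.

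RNA was measured on 4 one-colour Affymetrix arrays, 2 of control cells and 2 of LIN28A cells. Control cells were unmodified P19 cells. The LIN28A cells were P19 cells that express human LIN28A constitutively, a protein that binds let-7 precursors and keeps these microRNAs from maturing; the promoter used and whether the line is 1 clone are not given in the sources used here. Both lines were aggregated in medium with 5e-07 M all-trans retinoic acid for 4 days, a treatment that turns P19 cells towards neural fates. The arrays of a line are called number 1 and number 2 after their replicate numbers. Nothing in the labels states that a line's arrays came from separate cultures. Any p-value here measures the spread among these arrays alone, and that spread may be technical.

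In the developing spinal cord and hindbrain, postmitotic neurons are sorted into classes by combinations of homeodomain proteins, which also select the neuron's transmitter. Lhx1, Lhx5 and Pax2 are found together in inhibitory interneurons, where they maintain the GABA and glycine programme. Tlx3 does the reverse and promotes the glutamate programme in dorsal excitatory neurons, Lhx2 marks a dorsal class of commissural neurons, and Pou4f1 marks sensory neurons. Isl1 acts in motor and sensory neurons, and Onecut1 in motor neurons and several interneuron classes. Outside the nervous system Lhx1 and Pax2 also act in intermediate mesoderm and kidney, and Isl1 in heart progenitors.

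Promoters of 3 genes are shown, 1 for each pattern met in the values: Lhx1, lower in LIN28A cells in both numbers; Isl1, whose probe sets disagreed; and Tlx3, where the numbers pointed in opposite directions. Each is the 250 bases before the RefSeq transcription start in GRCm38.p6, 5′ to 3′ on the gene's strand, all minus here. Capitals mark matches on either strand to the E-box CANNTG, the site of proneural factors; to AGGTCA, the core element of retinoic acid and other nuclear receptors; or to TAATTA, a core bound by many homeodomains.
Lhx1 chr11:84525535-84525784: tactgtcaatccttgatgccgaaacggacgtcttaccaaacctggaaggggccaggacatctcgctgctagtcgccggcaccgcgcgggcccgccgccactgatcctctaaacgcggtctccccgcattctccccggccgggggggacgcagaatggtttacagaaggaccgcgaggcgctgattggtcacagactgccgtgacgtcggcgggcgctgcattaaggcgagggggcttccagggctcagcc
Isl1 chr13:116309689-116309938: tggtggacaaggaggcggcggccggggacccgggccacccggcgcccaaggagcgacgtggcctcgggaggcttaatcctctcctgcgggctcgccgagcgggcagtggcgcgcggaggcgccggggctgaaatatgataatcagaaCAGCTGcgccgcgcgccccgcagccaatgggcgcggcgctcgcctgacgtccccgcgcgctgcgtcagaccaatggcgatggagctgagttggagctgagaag
Tlx3 chr11:33203589-33203838: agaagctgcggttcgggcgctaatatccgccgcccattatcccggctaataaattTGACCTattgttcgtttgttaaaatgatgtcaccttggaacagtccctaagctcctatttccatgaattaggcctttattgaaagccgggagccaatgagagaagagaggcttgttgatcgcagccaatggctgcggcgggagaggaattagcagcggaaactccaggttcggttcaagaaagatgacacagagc

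The Lhx1 window held no match to these motifs, the Isl1 window held 1 E-box that began 103 bases before the start, and the Tlx3 window held 1 receptor core element, on the opposite strand, that began 195 bases before it. Over 32851 promoter windows of the same length, 66.2% held an E-box, 14% the receptor element and 4.84% TAATTA. None of the motifs overlapped another in these windows.

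Lhx1 and Lhx5 were grouped here as inhibitory interneuron factors. They had lower intensities in both LIN28A arrays than in both control arrays, at each of their 3 probe sets. Lhx1 at its brighter probe set read 115.9 and 147.8 in control 1 and 2 and 78.8 and 80.9 in LIN28A 1 and 2. The means were 132 ± 22.6 and 79.9 ± 1.48 (SD, n = 2), and the lines did not overlap. Its dimmer probe set read 33.8 and 31.4 in control arrays, and 14.8 and 17.5 under LIN28A, again without overlap. Both probe sets were designed from the same source sequence, so they are repeated readings of 1 transcript and not independent evidence.

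Lhx5 read 32.8 and 53.1 in control 1 and 2 and 16.5 and 14.4 in LIN28A 1 and 2. The means were 43.0 ± 14.4 and 15.5 ± 1.48 (SD, n = 2). The lines did not overlap; the control arrays lay apart from each other, while the LIN28A arrays lay close together at about the pseudocount of 16 that was added to every intensity before taking log2.

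On the log2(value + 16) scale, which understates the change of low genes, Lhx1 differed between LIN28A and control by -0.48 in number 1 and -0.76 in number 2 at its brighter probe set, and by -0.69 and -0.50 at the dimmer one. Lhx5 differed by -0.59 in number 1 and -1.18 in number 2. Ranked from the most negative among the 15838 probe sets tested, the Lhx5 difference stood at percentile 11.8 in number 1 and 1.44 in number 2, and that of the brighter Lhx1 probe set at percentile 17.4 and 4.53. Lhx5 in number 2 was the only one of the 10 lower by over 1 on this scale in either number, a size that 2.53% of tested probe sets passed in number 1 and 2.27% in number 2. Number 2 placed both genes further down the ranking than number 1, except at the dimmer Lhx1 probe set, with percentiles 7.65 and 10.04.

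None of these differences passed the test over all probe sets. In limma's fit of LIN28A against control, the mean log2 difference of Lhx5 was -0.89 ± 0.31 (SE; 95% interval -1.65 to -0.12), with an unadjusted p of 0.031 and an adjusted p of 1.0. The mean difference of Lhx1 was -0.62 ± 0.29 at the brighter probe set (95% interval -1.33 to 0.095) and -0.60 ± 0.28 at the dimmer one (-1.28 to 0.085), with unadjusted limma p-values of 0.078 and 0.076. The fit called 0 of the 15838 probe sets at an adjusted p under 0.05, or 0%. At an unadjusted p under 0.05 it had 192 lower (1.21%) and 70 higher (0.442%), and Lhx5 was the only probe set of the 7 genes among them.

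The 3 probe sets of Lhx1 and Lhx5 were the only ones of the 10 with both LIN28A arrays below both control arrays, and none had both above. Over all tested probe sets 15.5% lay below in this way and 10% above. The same 2 genes and no others met this condition after quantile normalization (12.2% of tested probe sets) and after median centring (8.42%). Counting this condition under these scalings was added after the data had been seen. Leaving out LIN28A 1, LIN28A 2 or control 1 kept the mean difference of Lhx5 between -1.14 and -0.84, and leaving out control 2 gave -0.63. For Lhx1 the same fits gave -0.77 to -0.46 at the brighter and -0.66 to -0.54 at the dimmer probe set.

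**Figure D1:**
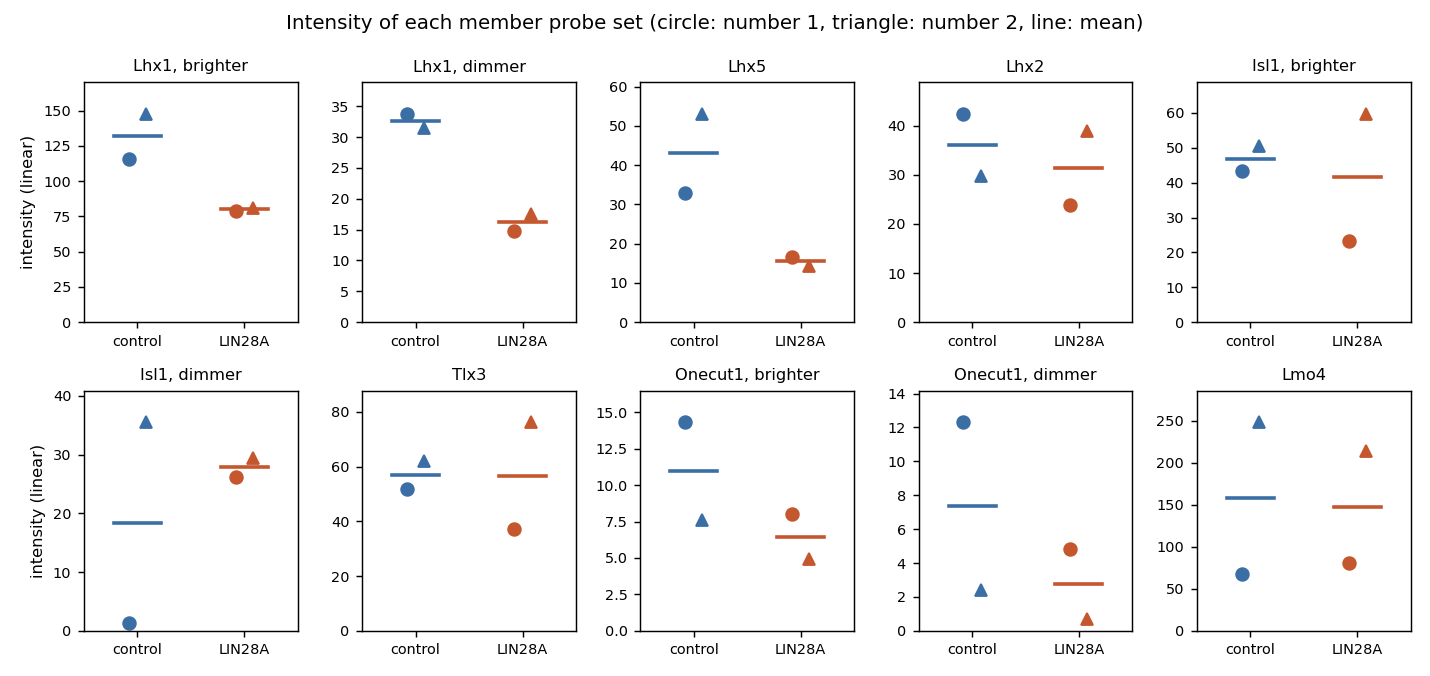
Linear intensity (vertical axes, each starting at 0 with its own scale) of the 10 probe sets in control (blue) and LIN28A cells (orange); circles are number 1, triangles number 2, and bars the mean of 2 arrays. At both Lhx1 probe sets and at Lhx5 all LIN28A points lie below all control points, whereas Lmo4 separates by number.

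The excitatory and dorsal factors Lhx2 and Tlx3 showed no such separation: each was lower in LIN28A cells in number 1 and higher in number 2. Lhx2 read 42.5 and 29.7 in control arrays, and 23.9 and 38.9 under LIN28A. Its log2 difference was -0.55 in number 1 and 0.26 in number 2. The lines overlapped, and the mean difference of -0.14 ± 0.32 (SE; 95% interval -0.94 to 0.65) did not exceed the spread between arrays. It was 0.034 without control 1 and 0.086 without LIN28A 1.

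Tlx3 read 51.8 and 62.0 in control arrays, and 37.1 and 76.2 under LIN28A, so that the lowest and the highest reading were both from LIN28A arrays. It differed by -0.35 in number 1 and 0.24 in number 2. The mean of -0.056 ± 0.36 (SE; 95% interval -0.95 to 0.84) turned to 0.0091 under quantile normalization and 0.071 under median centring, and to 0.045 and 0.34 without control 2 and without LIN28A 1. These intervals include differences as large as that of Lhx1 in either direction, so a like shift of Lhx2 or Tlx3 was not detectable with these arrays, and the difference between the inhibitory and the excitatory factors was not tested.

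Isl1, the LIM-homeodomain factor of motor and sensory neurons, gave readings that disagreed between its probe sets, although both come from the same source sequence. At the brighter one it read 43.4 and 50.4 in control arrays, and 23.4 and 59.8 under LIN28A. At the dimmer one it read 1.30 and 35.5 in control arrays, and 26.2 and 29.5 under LIN28A. The first differed by -0.59 in number 1 and 0.19 in number 2, the second by 1.29 and -0.18.

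In number 1 the Isl1 probe sets therefore pointed in opposite directions, and the difference of 1.29 at the dimmer one rested on the single low reading of control 1. It was the only one of the 10 probe sets higher by over 1 on the log2 scale in either number, a size that 1.02% of tested probe sets passed in number 1 and 1.1% in number 2. The mean difference at the dimmer probe set, 0.55 ± 0.54 (SE), became -0.23 without control 1, and that at the brighter one, -0.20 ± 0.39 (SE), became 0.27 without LIN28A 1.

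Onecut1, a cut-homeobox factor, was dim in every array. At its brighter probe set it read 14.3 and 7.60 in control arrays, and 8.0 and 4.9 under LIN28A, all under the pseudocount. At the other it read 12.3 and 2.40 in control arrays, and 4.8 and 0.70 under LIN28A, and this probe set fell under the filter on low values, a linear intensity of about 8.04. Both probe sets lay lower in LIN28A cells within each number, by -0.34 and -0.18 at the first and by -0.44 and -0.14 at the second, but the lines overlapped at both. The table holds no detection calls, so it could not be read from it whether these values lay above background.

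Lmo4 differed by number and hardly by line. It read 68.0 and 248 in control arrays, and 81.2 and 214.3 under LIN28A, so both number 2 arrays lay far above both number 1 arrays. Number 2 exceeded number 1 by 1.45 on the log2 scale, against a difference between the lines of 0.21 in number 1 and -0.20 in number 2. The mean difference between the lines was 0.0068 ± 0.66 (SE; 95% interval -1.63 to 1.64), the widest interval among the 7 genes. Of the 10 probe sets, 4 had both number 2 arrays above both number 1 arrays, as did 33.6% of all tested probe sets, and 2 had both below, as did 23.7%.

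**Figure D2:**
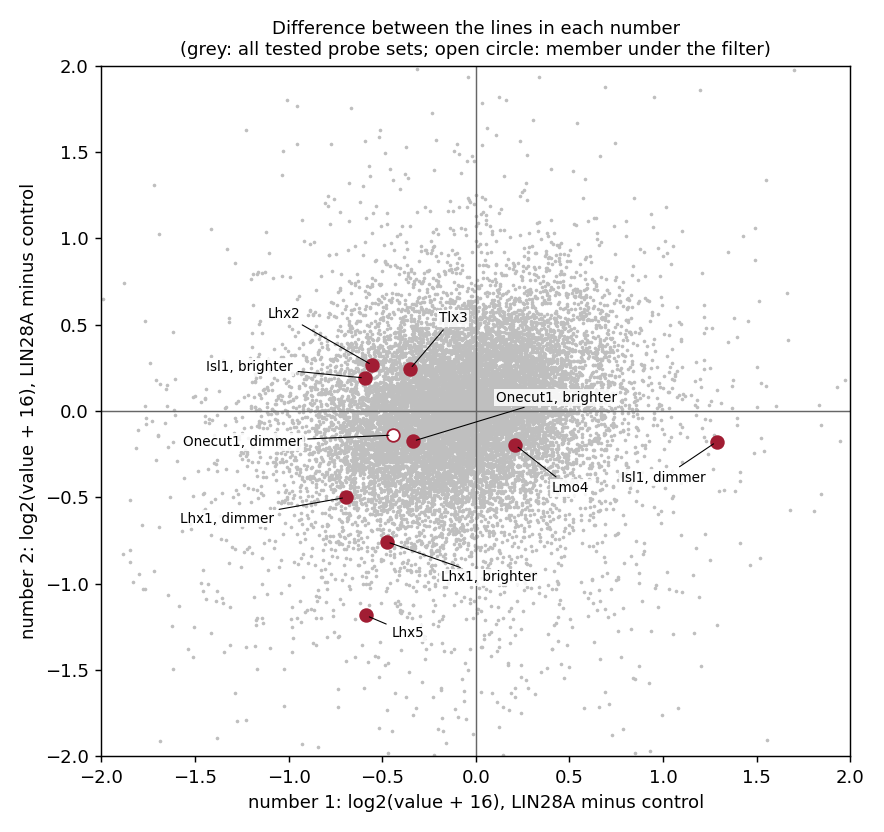
Difference between LIN28A and control on the log2(value + 16) scale within number 1 (horizontal) and within number 2 (vertical) for the 10 probe sets (red) and all tested probe sets (grey), with 83 tested probe sets outside the plotted range. Lhx5 and both Lhx1 probe sets lie in the lower left, Lhx2, Tlx3 and 1 Isl1 probe set in the upper left, and the Isl1 probe set that read 1.30 in control 1 far to the right.

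By gene, with the brightest probe set of each, 6 of the 7 differences lay below 0 in number 1 and 4 of 7 in number 2, with medians of -0.48 and -0.18. Of all tested probe sets 58.8% lay below 0 in number 1 and 50.1% in number 2, with medians of -0.087 and -0.0024. Genes below 0 in both numbers were Lhx1, Lhx5 and Onecut1, 3 of 7, against 33.3% of tested probe sets. None of the 7 lay above 0 in both, as 24.2% of tested probe sets did. The median over the 7 genes with all arrays, -0.20, was 0.086 without LIN28A 1 and -0.62 without LIN28A 2. LIN28A 1 also had the lowest median intensity, 29.0, against 35.8 in control 1 and 38.6 and 36.7 in control 2 and LIN28A 2. Under median centring the number 1 median over the 7 genes was -0.27, and 38.6% of tested probe sets lay below 0 there. Under quantile normalization these values were -0.39 and 48.8%. The part of the lower level of LIN28A 1 in the number 1 differences was not tested otherwise.

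By the neuron class each factor marks, the inhibitory pair had medians of -0.53 in number 1 and -0.97 in number 2. The excitatory pair, Lhx2 and Tlx3, had -0.45 and 0.25, and the motor neuron and broadly used factors, Isl1, Onecut1 and Lmo4, had -0.34 and -0.18. Both of the latter values are those of Onecut1, whose readings all lay under the pseudocount. Isl1 and Lmo4 each changed sign between the numbers. The class medians are of 2, 2 and 3 genes with 1 array a line, and differences between the classes were not tested. Pax2 was not measured, so the inhibitory pair rests on Lhx1 and Lhx5 alone. Whether neurons of that class changed was not tested.

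The arrays as a whole differed more by number than by line. Pearson's r across tested probe sets, which are not independent replicates, was 0.97 between the lines within each number and 0.93 to 0.94 between the numbers of a line. Of probe sets, 35.7% to 42.3% read under 16. The 3′ probe set of 18S ribosomal RNA gave 331 and 146 in the number 1 arrays but 13.5 and 13.2 in those of number 2, and the 3′ to 5′ ratio of beta-actin was 4.71 in control 1 against 2.76 to 3.37 in the others.

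Genes that all neurons share mostly lay lower in LIN28A cells, as Lhx1 and Lhx5 did, though most of them overlapped between the lines. All of the 15 pan-neuronal markers listed passed the filter, so neuronal transcripts were measured in these cells; 14 of 15 lay below 0 in number 1 and 14 of 15 in number 2, against 58.8% and 50.1% of all tested probe sets, with medians of -0.61 and -0.62. None was called at an adjusted p under 0.05 in limma, 4 had both LIN28A arrays below both control arrays and 0 above, against 15.5% and 10% of all tested probe sets. Mapt, the gene of the axonal microtubule protein tau, read 231.6 and 181.9 in control arrays, and 61.0 and 36.5 under LIN28A. Elavl4, a neuronal RNA-binding protein gene, read 231.8 and 453 against 129.8 and 189.7, and Stmn2, a gene of growing axons, read 821 and 902 against 216.1 and 626.9. The other probe sets of these 3 genes also lay below 0, at -1.19 and -0.35 for Mapt, -0.57 and -0.64 for Elavl4 and -1.0 for Stmn2. At each of these other probe sets, however, the lines overlapped. The list's summed intensity was 5774.3 and 9374.3 in control arrays and 3238.4 and 6475.9 under LIN28A, with overlap between the lines. In these bulk samples, fewer neurons of a class and less RNA per neuron cannot be told apart.

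Set beside the pan-neuronal medians, the Lhx1 differences of -0.48 and -0.76 at its brighter probe set lay on either side of them. Lhx5 with -0.59 and -1.18 was near them in number 1 and beyond them in number 2. Lhx2 with -0.55 was also near them in number 1, where Tlx3 had -0.35. In number 2, Lhx2 and Tlx3 with 0.26 and 0.24 lay above them. Whether any of the 7 genes differed from the pan-neuronal genes was not tested.

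The transmitter genes of each class were mostly dim. Of 6 genes of GABA and glycine neurons, 5 had a probe set and 2 passed the filter, and the GABA-synthesis genes Gad1 and Gad2 were not among them. Slc32a1, the vesicular transporter of GABA and glycine, read 20.7 and 15.7 in control arrays, and 3.90 and 1.70 under LIN28A, without overlap. It differed by -0.88 in number 1 and -0.84 in number 2 (limma unadjusted p = 0.024, adjusted p = 1.0), and all but its first control reading lay under 16. At its other probe set, which fell under the filter, the lines overlapped (21.4 and 3.8 in control, 0.80 and 4.4 with LIN28A). Abat, which breaks GABA down, read 138.6 and 338 in control arrays, and 68.4 and 419.3 under LIN28A, with overlap.

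Of 4 glutamate genes only Slc17a6, a vesicular glutamate transporter, passed the filter. It read 28.7 and 23.3 in control arrays, and 0.80 and 65.7 under LIN28A, so it was lower by -1.41 in number 1 and higher by 1.06 in number 2. Its other probe set, under the filter, read 7.5 and 11.7 in control and 0.50 and 9.9 with LIN28A and was lower in both numbers, by -0.51 and -0.097. Of 4 cholinergic genes 2 passed. Slc18a3, the vesicular acetylcholine transporter, read 8.50 and 36.2 in control arrays, and 4.70 and 19.3 under LIN28A, and Ache, the acetylcholinesterase gene, 10 and 11.8 against 2.40 and 10.6, with overlap in both.

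Of 8 sensory neuron genes 5 passed the filter, 0 were called in either direction, and 3 (Ret, Prph and Ntrk3) had both LIN28A arrays below both control arrays, as had 15.5% of all tested probe sets. Ret, a growth factor receptor gene, read 24.4 and 68.5 in control arrays, and 17.3 and 18.3 under LIN28A. Prph, the gene of the peripheral neurofilament protein peripherin, read 17.7 and 19 against 7.90 and 3.20, and Ntrk2, the BDNF receptor gene, read 295.7 and 175.2 against 185.9 and 94.0, with overlap. Ntrk3 read 10.7 and 12.8 in control arrays, and 5.3 and 8.3 under LIN28A. All of these lay under the pseudocount of 16, as did both LIN28A readings of Prph. The other Prph probe sets fell under the filter. The sensory list medians were -0.33 in number 1 and -0.87 in number 2.

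**Figure D3:**
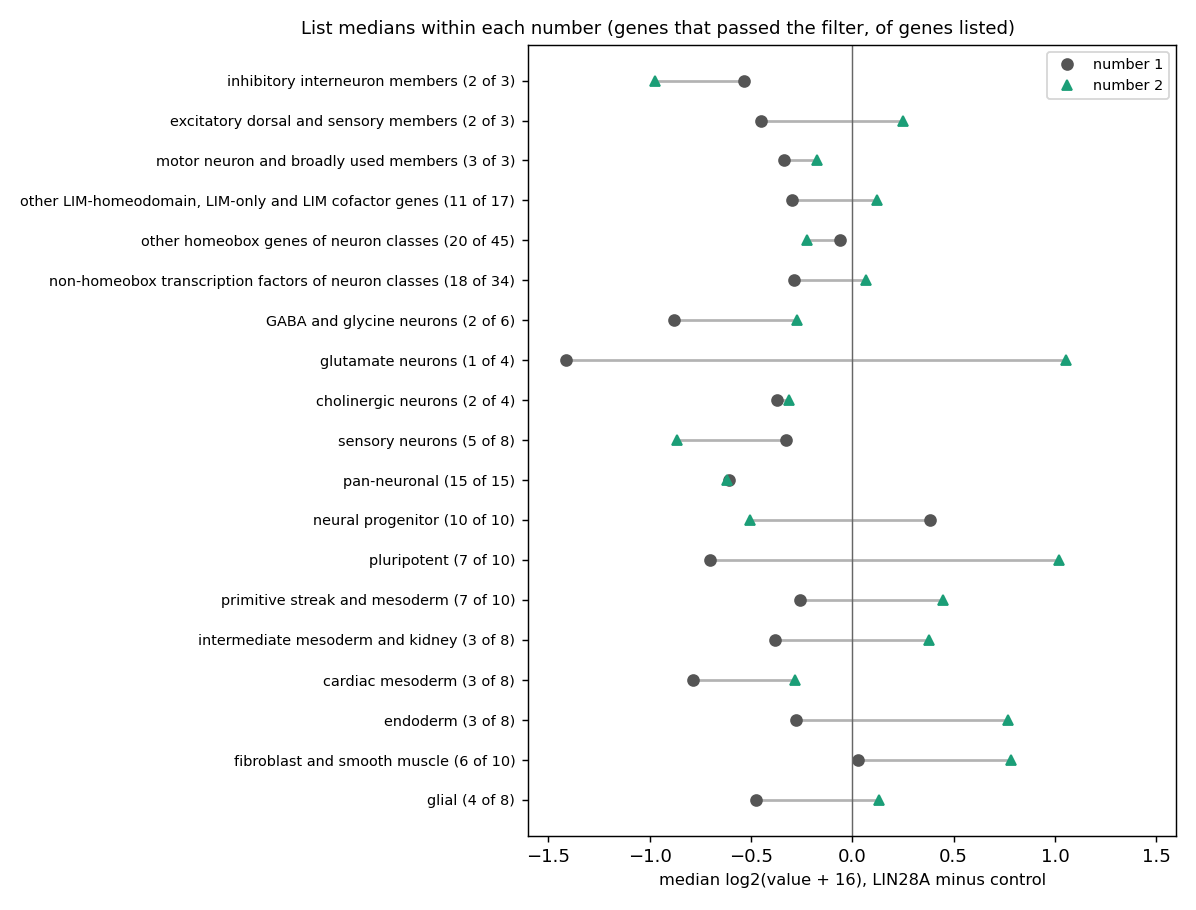
Median difference between LIN28A and control on the log2(value + 16) scale within number 1 (grey circles) and number 2 (green triangles) for each class of the 7 genes and each comparison list; brackets give the genes that passed the filter of those listed. Below 0 in both numbers lie the inhibitory and the motor neuron and broadly used members, the other homeobox, GABA and glycine, cholinergic, sensory, pan-neuronal and cardiac lists; fibroblast and smooth muscle lies above 0 in both, and the remaining lists change sign, the glutamate list being 1 gene.

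Among the other genes of the LIM network, 16 of 17 had a probe set and 11 passed the filter, with 0 called higher and 0 lower; 3 had both LIN28A arrays below both control arrays and 1 had both above, against 15.5% and 10% of all tested probe sets. The medians were -0.30 in number 1 and 0.12 in number 2. The gene with both arrays above was Rlim, a ubiquitin ligase that marks the shared LIM cofactor for degradation, which read 231.5 and 200.6 in control arrays, and 320 and 405.3 under LIN28A (log2 difference 0.70 ± 0.30 SE). Its other probe sets that passed the filter differed by 0.33 and -0.23, with overlap between the lines at the first and not at the second. Lmo1, a LIM-only gene, read 26.7 and 19 against 17.7 and 8.80, and Lhx3, a motor neuron factor, read 23.0 and 6.60 against 6.4 and 5.0. All of these Lhx3 readings but the first lay under the pseudocount of 16. The other Lhx3 probe set, under the filter, read 11.2 and 3.0 against 0.30 and 7.0, with overlap. It differed by -0.74 in number 1 and 0.28 in number 2.

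Of 45 other homeobox genes of neuron classes, 37 had a probe set and 20 passed the filter. None was called in either direction, 5 had both LIN28A arrays below both control arrays and 0 above (15.5% and 10% of all tested probe sets), and the medians were -0.062 in number 1 and -0.22 in number 2. Uncx read 33.1 and 45.9 in control arrays, and 2.70 and 27.5 under LIN28A. Tlx1, a close relative of Tlx3, read 10.4 and 14.2 against 1.80 and 7.90, and Pou3f3 read 13.2 and 24.1 against 8.80 and 13.4, with overlap. Lbx1, also in this list, was picked out here after its values were seen. It read 104.8 and 244.4 in control arrays, and 76.0 and 176.3 under LIN28A. It was lower within each number, by -0.39 and -0.44, and overlapped between the lines. Its other probe set read 69.3 and 119.1 against 37.5 and 112.7, with overlap, and differed by -0.67 in number 1 and -0.070 in number 2.

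Of 34 transcription factors of neuron classes without a homeobox, 27 had a probe set and 18 passed, 0 were called, and 2 had both LIN28A arrays below both control arrays and 0 above, where 15.5% and 10% of all tested probe sets did. The medians were -0.29 in number 1 and 0.067 in number 2. Neurog2, a proneural factor, read 79.1 and 90.8 in control arrays, and 44.4 and 73.3 under LIN28A. Olig3, a factor of dorsal progenitors, and Sox21, a progenitor factor, overlapped between the lines.

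Markers of the other tissues that use these factors stood as follows. Of 8 genes of intermediate mesoderm and kidney, 6 had a probe set and 3 passed the filter. All 6 together, filtered or not, had a summed intensity of 84.3 and 159 in control arrays and 43.8 and 208 under LIN28A. The medians of the 3 that passed were -0.38 in number 1 and 0.38 in number 2. Of 8 cardiac mesoderm genes, all with a probe set, 3 passed. The sums over all 8, filtered or not, were 101 and 71.5 against 36.3 and 72.4. Of the 3 that passed, 2 had both LIN28A arrays below both control arrays, as had 15.5% of all tested probe sets. Their list medians were -0.78 in number 1 and -0.28 in number 2. No gene with a probe set in these 2 lists read 0 in all 4 arrays. Both sums overlapped between the lines, and the part of these tissues in the Lhx1 and Isl1 values was not tested. Neural progenitor genes had medians of 0.38 in number 1 and -0.51 in number 2, and pluripotency genes -0.70 and 1.02, both with opposite signs in the numbers. The medians were -0.26 and 0.45 for primitive streak and mesoderm genes, -0.28 and 0.77 for endoderm genes, 0.029 and 0.79 for fibroblast and smooth muscle genes, and -0.47 and 0.13 for glial genes.

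For each of the 7 genes, the transcripts most like it over the 4 arrays were found by the Euclidean distance of log2 values, each probe set being centred on its own mean. Those nearest to Lhx1 were Rnf138 (distance 0.059) and Kdm5d (0.061), and those nearest to Lhx5 were Epb41l2 (0.079) and Ubfd1 (0.11). Rnf138, a ubiquitin ligase gene, read 45.8 and 61.0 in control arrays, and 26.6 and 27.8 under LIN28A, and Epb41l2, a membrane skeleton gene, read 16.1 and 31.5 against 5.00 and 4.90. Those of Isl1 were Zcchc14 and Bace1, of Lhx2 Mrpl55 and Cirbp, of Tlx3 Rabl3 and Sdcbp, of Onecut1 Prelid1 and Loxl3, and of Lmo4 Parg and Srsf5, at distances of 0.017 to 0.11. With 4 arrays and 15838 probe sets, such near neighbours are found for any pattern.

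**Figure D4:**
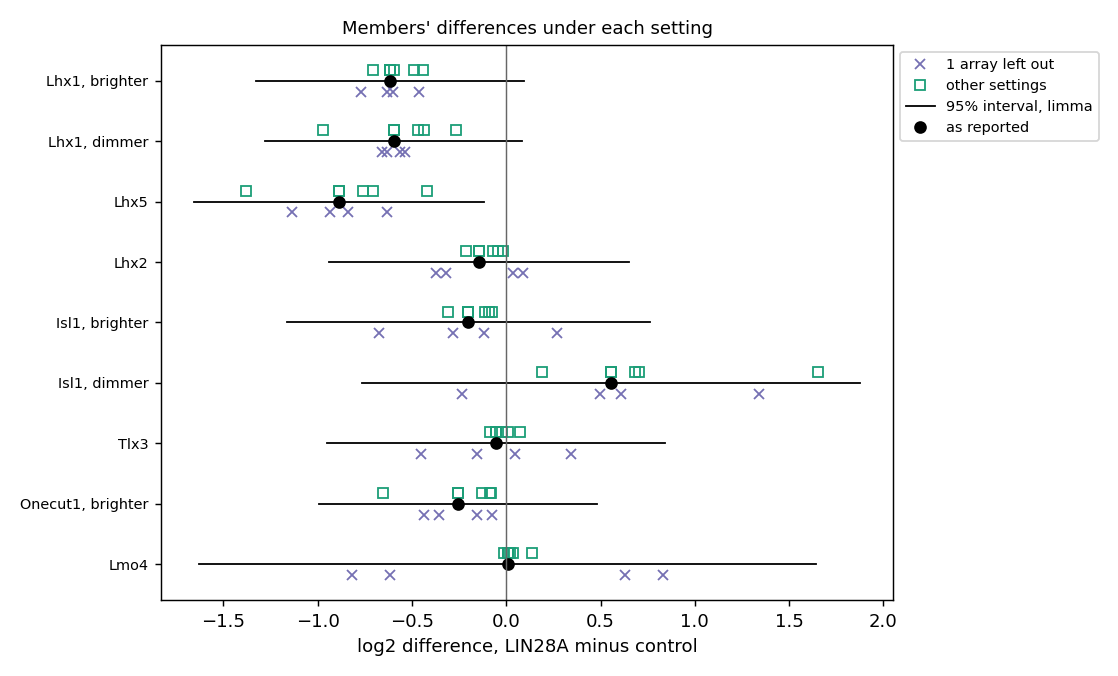
Log2 difference between LIN28A and control (horizontal axis) for the 9 probe sets that passed the filter: black points are the values given, black lines limma's 95% intervals, crosses fits without 1 array, and open squares the other settings. The 3 probe sets of Lhx1 and Lhx5 stay below 0 under every setting drawn, as does Onecut1; Lhx2, Tlx3, Lmo4 and both Isl1 probe sets cross 0 when 1 array is left out.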

How the data were processed

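The authors deposited 1 table of 22690 probe sets with linear intensity values, per the labels from biotin-labelled cRNA on Affymetrix arrays (probe summary and array scaling: not given in the sources used here). All 64 control probe sets were left out. Values were turned into log2(value + 16), and probe sets whose mean lay under the 30th percentile were dropped, which left 15838. The lines were compared in limma 3.58.1 under R 4.3.3 (lmFit, eBayes, no block, two-sided, Benjamini-Hochberg over all tested probe sets, threshold 0.05). The test was also run on simulated data. Recovery of large changes was required there only without a shift between the numbers, unlike in these arrays. Differences within a number compare 1 array with 1 and have no test. With 2 arrays a line, the smallest two-sided exact permutation p is 0.333, so none is given; so few arrays limit the precision of each value.

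For a list, the brightest tested probe set (highest mean) stood for a gene, and lists are described by counts and medians only. The 7 genes' probe sets are all given; from each of 16 other lists up to 3 genes with the smallest unadjusted p were to be named, of which those of the neuronal and homeobox lists are. The genes and lists were chosen with earlier results of these data known. Alternatives were other pseudocounts, quantile normalization, median centring, other filters, the replicate block, the mean of a gene's probe sets and leaving out each array. Promoter sequences are RefSeq's in GRCm38.p6; 8 of the 9 genes had an entry.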

Additional observations from a re-analysis of the deposited data

How the results depend on the processing

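The count of probe sets called by limma at an adjusted p under 0.05 was 0 higher and 0 lower under every planned setting, and 0 to 0 without 1 array, except with the replicate block, which called 1 higher and 0 lower. Same-numbered arrays deviated together (r = 0.62 across tested probe sets), but the labels give them only a shared number. With the replicate block the unadjusted limma p was 0.0085 for Lhx5 and 0.025 and 0.027 for Lhx1. The adjusted p-values were 0.55, 0.57 and 0.57, so neither was called. The unadjusted limma p of Lhx5 was 0.052 under quantile normalization, 0.055 under median centring and 0.067 with pseudocount 64. It was 0.017 with pseudocount 1 and 0.021 without the filter. Over these settings it was 0.039 to 0.14 at the brighter Lhx1 probe set and 0.030 to 0.15 at the dimmer one. With the replicate block, 890 probe sets lower and 468 higher had an unadjusted p under 0.05. That count was 107 lower and 167 higher under median centring, which moved the median over all tested probe sets from -0.049 to 0.078; relative to that median the members' differences are the same under both.

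Outside fits that left out an array, 3 of 58 values of single probe sets changed sign: Lmo4 was -0.014 with pseudocount 64, and Tlx3 0.0091 and 0.071 under quantile normalization and median centring. Without 1 array the ranges were -0.77 to -0.46 and -0.66 to -0.54 for Lhx1, -1.14 to -0.63 for Lhx5, -0.44 to -0.076 for Onecut1, -0.37 to 0.086 for Lhx2, -0.45 to 0.34 for Tlx3, -0.67 to 0.27 and -0.23 to 1.34 for Isl1, and -0.82 to 0.83 for Lmo4. The median over the 7 genes ranged from -0.62 to 0.086. The probe sets with LIN28A wholly below control numbered 5 to 6 of the 10, as fewer arrays separate more easily. Of all tested probe sets, 35.1% lay below in this way without control 1 and 35% without control 2. The share was 30.7% without LIN28A 1 and 40.5% without LIN28A 2. Within number 1 the median over the 7 genes was -0.77 with pseudocount 1. Causes were not tested otherwise.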
